A study of Rattus norvegicus with 10 samples.

Results

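Gluconeogenesis, the making of glucose from lactate, amino acids and glycerol, was followed in rat liver through 9 genes. The enzymes and the transporter were Pc, Pck1, Pck2, Fbp1, G6pc, G6pc3 and Slc37a4, and the regulators were Ppargc1a and Foxo1. Members were taken by name, and each gene's value was the sum of its isoforms that match, lie within, share a splice junction with or overlap the reference gene. This gave 30 isoforms of 9 genes among 20226 genes summed in the same way. Liver RNA came from 10 samples of wild type Wistar rats, 5 after sleeve gastrectomy (SG), which removes most of the stomach, and 5 after a sham operation (SHAM). All rats had eaten a diet with 60% of calories from fat for 4 weeks. They had then received 35 mg/kg streptozotocin, which kills pancreatic beta cells, so both groups came from rats made diabetic. A time of 3 months since surgery is labelled for SG but none for SHAM, and time and operation cannot be told apart. Fasting glucose over 16.7 mmol/L was required of every rat before grouping, and glucose when the livers were taken is not given here. A fast of 16 h is listed for all 10 samples, and whether it came before the livers were taken is not stated here. Age is not labelled. Neither group is a never-diabetic or an unoperated control.

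As background, Pc in mitochondria turns pyruvate into oxaloacetate, and Pck1 in the cytosol or Pck2 in mitochondria turns that into phosphoenolpyruvate. Fbp1 removes a phosphate from fructose bisphosphate, and Slc37a4 carries glucose 6-phosphate into the endoplasmic reticulum, where G6pc splits it into free glucose. Fasting, glucagon and glucocorticoids raise Pck1 and G6pc in liver and insulin lowers them, in part through the forkhead factor Foxo1 and the coactivator Ppargc1a. In streptozotocin-treated rats, loss of insulin is known to raise hepatic glucose output.

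Promoters of the 3 members best known for regulation by glucagon and cAMP are shown first, because the levels of these 3 transcripts across the livers are compared below. The sequences are those of RefSeq in the build GRCr8, which is not the build of the expression table, and run from 250 bases before to 50 bases after the listed start, 5′ to 3′ on the + strand. Capitals mark matches to the searched motifs.
Pck1, chr3:182348322-182348621: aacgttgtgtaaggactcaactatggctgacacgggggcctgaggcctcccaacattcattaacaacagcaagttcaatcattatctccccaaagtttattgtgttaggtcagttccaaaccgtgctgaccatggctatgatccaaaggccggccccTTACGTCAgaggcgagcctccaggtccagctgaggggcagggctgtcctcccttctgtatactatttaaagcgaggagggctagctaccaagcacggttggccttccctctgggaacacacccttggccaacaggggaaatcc
G6pc (listed as G6pc1), chr10:86807409-86807708: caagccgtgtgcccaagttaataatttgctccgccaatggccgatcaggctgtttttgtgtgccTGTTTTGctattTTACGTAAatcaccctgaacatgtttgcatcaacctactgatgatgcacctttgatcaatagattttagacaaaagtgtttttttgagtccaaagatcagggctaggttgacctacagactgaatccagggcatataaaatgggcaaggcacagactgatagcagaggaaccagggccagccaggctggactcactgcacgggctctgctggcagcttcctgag
Ppargc1a, chr14:63634058-63634357: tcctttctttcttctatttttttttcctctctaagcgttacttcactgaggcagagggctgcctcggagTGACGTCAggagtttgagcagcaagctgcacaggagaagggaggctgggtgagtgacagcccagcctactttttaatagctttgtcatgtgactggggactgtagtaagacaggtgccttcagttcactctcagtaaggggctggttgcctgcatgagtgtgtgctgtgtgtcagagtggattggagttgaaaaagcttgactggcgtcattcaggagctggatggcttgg

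The promoters of Pck1 and Ppargc1a held the letters of the cAMP response element or of a variant, and their letters differed. In G6pc the only such match was to TTACGTAA. The search covered both strands for TGACGTCA, its variants TTACGTCA and TTACGTAA, the forkhead letters TGTTTAC, the insulin response letters TGTTTTG and the D-box letters TTATGTAA. TTACGTAA was added after the sequences were seen, so its match in G6pc was fixed in advance. Pck1 held TTACGTCA beginning 93 bases before the start, a form found in 0.807% of 33469 promoters of this length. G6pc held TTACGTAA at 174 bases, found in 0.120% of promoters, and TGTTTTG at 186 bases, found in 6.28%. Ppargc1a held TGACGTCA at 181 bases, found in 1.83%. The exact letters TGTTTAC (3.78% of promoters) and TTATGTAA (0.893%) had no match in the windows of the 8 members with a listed promoter. Other forms of the forkhead and D-box motifs were not searched as such. TTACGTAA and TTATGTAA differ only in C against T, and which motif the G6pc letters belong to was not tested. A match describes letters only.

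The SG libraries held 77617460 to 92110190 estimated counts and the SHAM libraries 65824088 to 85520959, and every member had at least 201 estimated counts in each library. The tissue label was checked with 6 hepatocyte markers, among which albumin (Alb) stood at 15517 to 27810 FPKM (fragments for each kilobase of transcript, corrected for library size). Kidney, another gluconeogenic organ, was represented by Umod at no more than 0.0106 FPKM and Slc34a1 at no more than 0.0653 FPKM, while the remaining kidney marker, Lrp2, stood at 1.47 to 6.38 FPKM. The library SG 2 had the highest sum of 5 macrophage markers (361 FPKM, with SG 1, the next in its group, at 182 FPKM) and of 5 stellate cell markers (79.4 FPKM). SHAM 5 had the highest macrophage sum in its group (321 FPKM). The members were therefore also compared without SG 2 and SHAM 5, where 0 of 9 passed the test. In bulk liver, fewer cells of a type and less RNA per cell cannot be told apart.

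The first committed steps were carried by Pc and Pck1, and Pc was the steadiest member of the group. In SG livers Pc stood at 119, 117, 85.4, 114 and 92.8 FPKM in SG 1 to SG 5, and in SHAM livers at 104, 105, 88.8, 108 and 92.0 FPKM in SHAM 1 to SHAM 5. The SHAM range lay wholly within the SG range. Pck1, the cytosolic phosphoenolpyruvate carboxykinase, was the most abundant member in every library. It stood at 1036, 1136, 651, 991 and 618 FPKM in SG 1 to SG 5. The SHAM values were 1018, 1566, 587, 694 and 657 FPKM, so SHAM 2 was above all other libraries and the remaining SHAM values overlapped those of SG. Pck2, the mitochondrial isoenzyme, stood at 4.25, 4.17, 2.58, 4.19 and 4.66 FPKM in SG and at 4.15, 3.03, 5.01, 6.38 and 3.46 FPKM in SHAM. The highest Pck2 value, in SHAM 4, and the lowest, in SG 3, came from different groups, with the ranges overlapping.

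Fbp1, the fructose bisphosphatase, varied little. Its values were 174, 209, 168, 148 and 196 FPKM in SG 1 to SG 5 and 171, 218, 207, 136 and 145 FPKM in SHAM 1 to SHAM 5. Both the highest and the lowest value were in SHAM, and the groups overlapped. The transporter Slc37a4 was at 67.5, 46.5, 63.7, 68.8 and 68.3 FPKM in SG and at 75.9, 102, 60.0, 33.0 and 39.5 FPKM in SHAM. Its spread was wider in SHAM (SD 28.1 FPKM, n = 5) than in SG (SD 9.44 FPKM, n = 5), a contrast that was not tested.

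G6pc, the catalytic subunit of liver glucose-6-phosphatase, varied most. In SG it stood at 36.2, 45.2, 7.47, 57.6 and 26.2 FPKM, and in SHAM at 36.6, 11.1, 22.7, 42.0 and 29.2 FPKM. The 2 lowest values were in SG 3 and SHAM 2, 1 library of each group. G6pc3, the widely expressed relative of G6pc, was low and even, at 1.75, 2.78, 2.47, 1.68 and 2.45 FPKM in SG and 2.52, 2.10, 1.82, 1.68 and 1.37 FPKM in SHAM.

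The regulators were expressed below most of the enzymes. Ppargc1a, a transcriptional coactivator, stood at 1.92, 1.64, 3.71, 1.89 and 2.18 FPKM in SG and at 2.43, 3.44, 1.67, 2.07 and 1.959 FPKM in SHAM. SG 3 and SHAM 2, the libraries with the least G6pc, had the most Ppargc1a. Foxo1 was at 22.1, 12.3, 18.5, 32.0 and 18.1 FPKM in SG and 18.1, 25.0, 14.0, 18.4 and 19.2 FPKM in SHAM, and the groups overlapped.

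**Figure D1:**
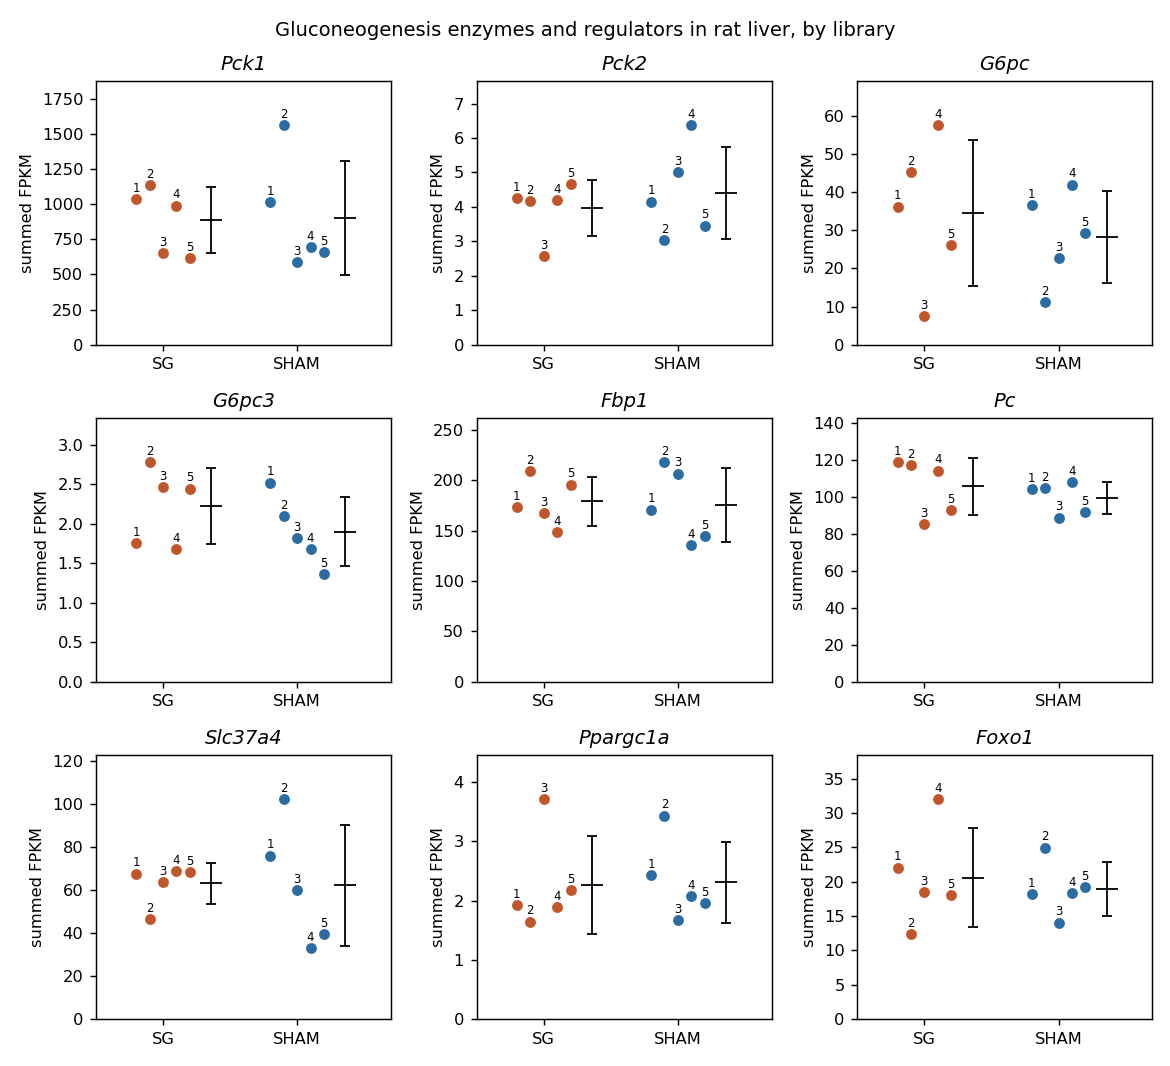
Summed FPKM of each member (vertical axes, from 0) in the 5 SG and 5 SHAM libraries; points are libraries with their number, and the bar beside each group is the mean with SD (n = 5). The groups overlap in all 9 panels, and SG 3 and SHAM 2 are the lowest points of G6pc and the highest of Ppargc1a.

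Ordered by mean FPKM over all libraries, Pck1 (895) came first, followed by Fbp1 (177), Pc (103), Slc37a4 (62.5), G6pc (31.4), Foxo1 (19.8), Pck2 (4.19), Ppargc1a (2.29) and G6pc3 (2.06). Pck1 exceeded Fbp1, Fbp1 exceeded Pc, and Pc exceeded Slc37a4 in 10 of 10 libraries each, as did Foxo1 over Pck2. Slc37a4 exceeded G6pc in 9 libraries, G6pc exceeded Foxo1 in 8, and Pck2 exceeded Ppargc1a in 8. The Pck2 sum adds isoforms from separate parts of the gene, at 2.40 and 1.77 FPKM on average. Taken alone, the isoform at 2.40 FPKM lay slightly above the mean of Ppargc1a (2.29) and the isoform at 1.77 FPKM lay below it. Ppargc1a and G6pc3 could not be ordered beyond their spread, with Ppargc1a higher in 6 of 10 libraries.

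Which of these genes differed between SG and SHAM livers was then tested, and none did at the threshold of 0.05. With edgeR's quasi-likelihood test on estimated counts, 0 of 9 members passed (adjusted p at least 0.991), where 0% of all 11139 tested genes passed. At an unadjusted p under 0.05 there were 0 of 9 members against 4.53% of all genes (edgeR). With DESeq2 0.162% of all genes passed and 0 of 9 members did, with 5.65% of all genes at an unadjusted p under 0.05. Limma on log2(FPKM + 0.5) called 0 of 9 members and 0% of all genes, with 6.28% of all genes at an unadjusted p under 0.05. No member had groups that did not overlap in FPKM, a state reached by 1.34% of all tested genes. Whether the samples are separate rats is not labelled, and a p-value here reflects the spread among samples, which may be technical.

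The intervals show how large a difference these libraries could still hold. Pck1 averaged 886 ± 236 FPKM after SG against 904 ± 405 after SHAM (SD, n = 5), and its log2 fold change was -0.06 (95% interval -0.66 to 0.54). That interval spans a ratio of 0.634 to 1.46 of SG to SHAM. Pc and Fbp1 were bounded most tightly. The log2 fold change of Pc was 0.00 (interval -0.29 to 0.30), with 106 ± 15.5 FPKM in SG and 99.5 ± 8.52 FPKM in SHAM. From isoforms that match the reference alone, which hold little of Pc, it was 0.45, outside that interval. That of Fbp1 was -0.06 (-0.39 to 0.26), with 179 ± 23.9 and 175 ± 36.5 FPKM. G6pc averaged 34.5 ± 19.0 FPKM after SG against 28.3 ± 12.1 after SHAM. Its interval was the widest, from 0.527-fold to 2.46-fold around a log2 fold change of 0.19, and it was the 1 member whose interval reached past a 2-fold change. Over all tested genes, 84.9% had an interval within 2-fold. The smallest p among members in edgeR's fit over all genes was that of Pck2 (adjusted p = 0.991), with a log2 fold change of -0.27 ± 0.23 (SE). G6pc3 stood at 0.14 ± 0.19, Slc37a4 at -0.07 ± 0.26, Ppargc1a at -0.10 ± 0.25 and Foxo1 at -0.13 ± 0.38 (log2 fold change ± SE). Of the 9 values 3 were positive and 6 negative, with a median of -0.06 beside -0.01 over all tested genes. In limma on FPKM, where the median over all genes was 0.08, 7 of 9 were positive. Signs of members other than Pck2 turned with 1 library left out or with another setting, as given with the alternatives.

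**Figure D2:**
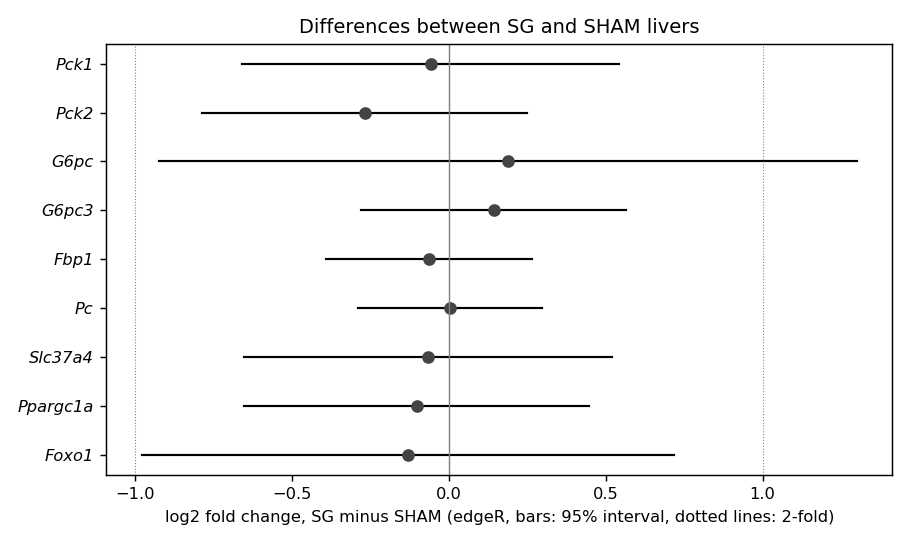
Log2 fold change of each member, SG minus SHAM (horizontal axis), from edgeR on estimated counts of 5 libraries in each group; points are estimates, bars 95% intervals, and dotted lines mark a 2-fold change. All 9 intervals cross 0 and the interval of G6pc, from 0.527-fold to 2.46-fold, passes the dotted line on the right.

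Although group means were close, livers within a group differed widely for some members. The SD of log2(CPM + 1) (CPM, counts scaled to library size) within groups was 0.99 for G6pc, higher than in 97.1% of tested genes, and 0.66 for Foxo1 and 0.47 for Slc37a4. It was 0.45 for Pck1, 0.36 for Ppargc1a and Pck2, and 0.23, 0.23 and 0.19 for G6pc3, Fbp1 and Pc, beside a median of 0.23 over all tested genes. Between the lowest and the highest library G6pc differed 7.71-fold in FPKM, Slc37a4 3.09-fold, Pck1 2.67-fold, Foxo1 2.59-fold, Fbp1 1.61-fold and Pc 1.39-fold. The reference isoform of Foxo1 differed 2.20-fold in FPKM. The SD of Foxo1 is in counts, of which an isoform of 23657 nt took 0.244% in SG 5 and 0.399% in SHAM 4. That isoform took at least 44.7% in the other libraries, and its part in the SD was not tested.

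The isoforms behind these sums were examined next, with coordinates in Rnor_6.0. G6pc3, Fbp1 and Ppargc1a had 1 isoform each, and in G6pc a 5-exon isoform (chr10:89285855-89296213, + strand) carried 81.7% to 99.5% of the FPKM. In Pck1 (chr3:171213936-171219871, + strand) the reference isoform of 10 exons and 2621 nt carried 69.5% to 89.0%. The remainder lay in 3 assembled isoforms with the same ends but fewer exons and greater length (4 exons and 5071 nt, 7 exons and 3725 nt, 8 exons and 3353 nt), so that they hold sequence spliced out of the reference. The longer isoforms summed to 180, 189, 147, 147 and 189 FPKM in SG 1 to SG 5 and to 142, 172, 76.1, 142 and 121 FPKM in SHAM 1 to SHAM 5. Every SG library lay above every SHAM library other than SHAM 2, a pattern seen after the values were known and not tested. Their share of Pck1 FPKM was 17.4%, 16.7%, 22.5%, 14.8% and 30.5% in SG 1 to SG 5 and 13.9%, 10.97%, 12.9%, 20.4% and 18.4% in SHAM 1 to SHAM 5, so the shares of the groups overlapped.

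For Pck2, Slc37a4, Pc and Foxo1 the reference isoform was not the main source of the signal, or not the only one. The 15-exon reference isoform of Pck2 (chr15:34216833-34224193, + strand) stood at 0.0169 FPKM on average. The Pck2 signal came from a 6-exon isoform ending at base 34221424 and a 3-exon isoform beginning at base 34222155, which do not overlap, so their sum adds pieces from both ends of the gene. In Slc37a4 (chromosome 8) a 9-exon assembled isoform of 2221 nt and a 9-exon reference isoform of 2077 nt divided the signal. The reference isoform stood at 34.4, 30.0 and 15.7 FPKM in SG 1, SG 2 and SHAM 5 and was listed at 0 in the other 7 libraries. The assembled isoform carried 47.6%, 35.2% and 59.4% of Slc37a4 FPKM in those 3 libraries and at least 99.2% in the other 7. Its share differed by -15.3 percentage points between SG (76.4 ± 32.2%) and SHAM (91.7 ± 18.0%, SD, n = 5), a difference not beyond the spread (exact permutation test, two-sided, p = 0.278, adjusted p = 0.706 over 3 members). The difference was -4.99 points without SG 2, -8.11 without SG 1 and -23.4 without SHAM 5. Isoform shares in this table are estimates of the assembler from shared reads.

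Pc (chromosome 1) was carried by an assembled isoform of 21 exons and 4004 nt at 71.2% to 92.4% of its FPKM, and none of its 3 reference isoforms held more than 1.44% on average. Foxo1 (chromosome 2) was spread over 7 isoforms. Its 3-exon reference isoform stood at 6.60, 5.17, 7.52, 11.4 and 6.80 FPKM in SG and 7.20, 6.80, 5.42, 10.6 and 7.02 FPKM in SHAM, between 27.3% and 57.4% of the sum. A 2-exon isoform of 23657 nt took 0.244% of Foxo1 estimated counts in SG 5 and 0.399% in SHAM 4, but 44.7% to 75.1% in the other 8 libraries. The Foxo1 counts that entered the test, 7777 to 28353 per library, rest largely on that isoform in those 8. The shares of the most abundant isoform differed by less than the spread for Foxo1 (-2.78 percentage points, exact permutation p = 0.706, adjusted p = 0.706) or Pck2 (2.05 points, exact permutation p = 0.563, adjusted p = 0.706).

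**Figure D3:**
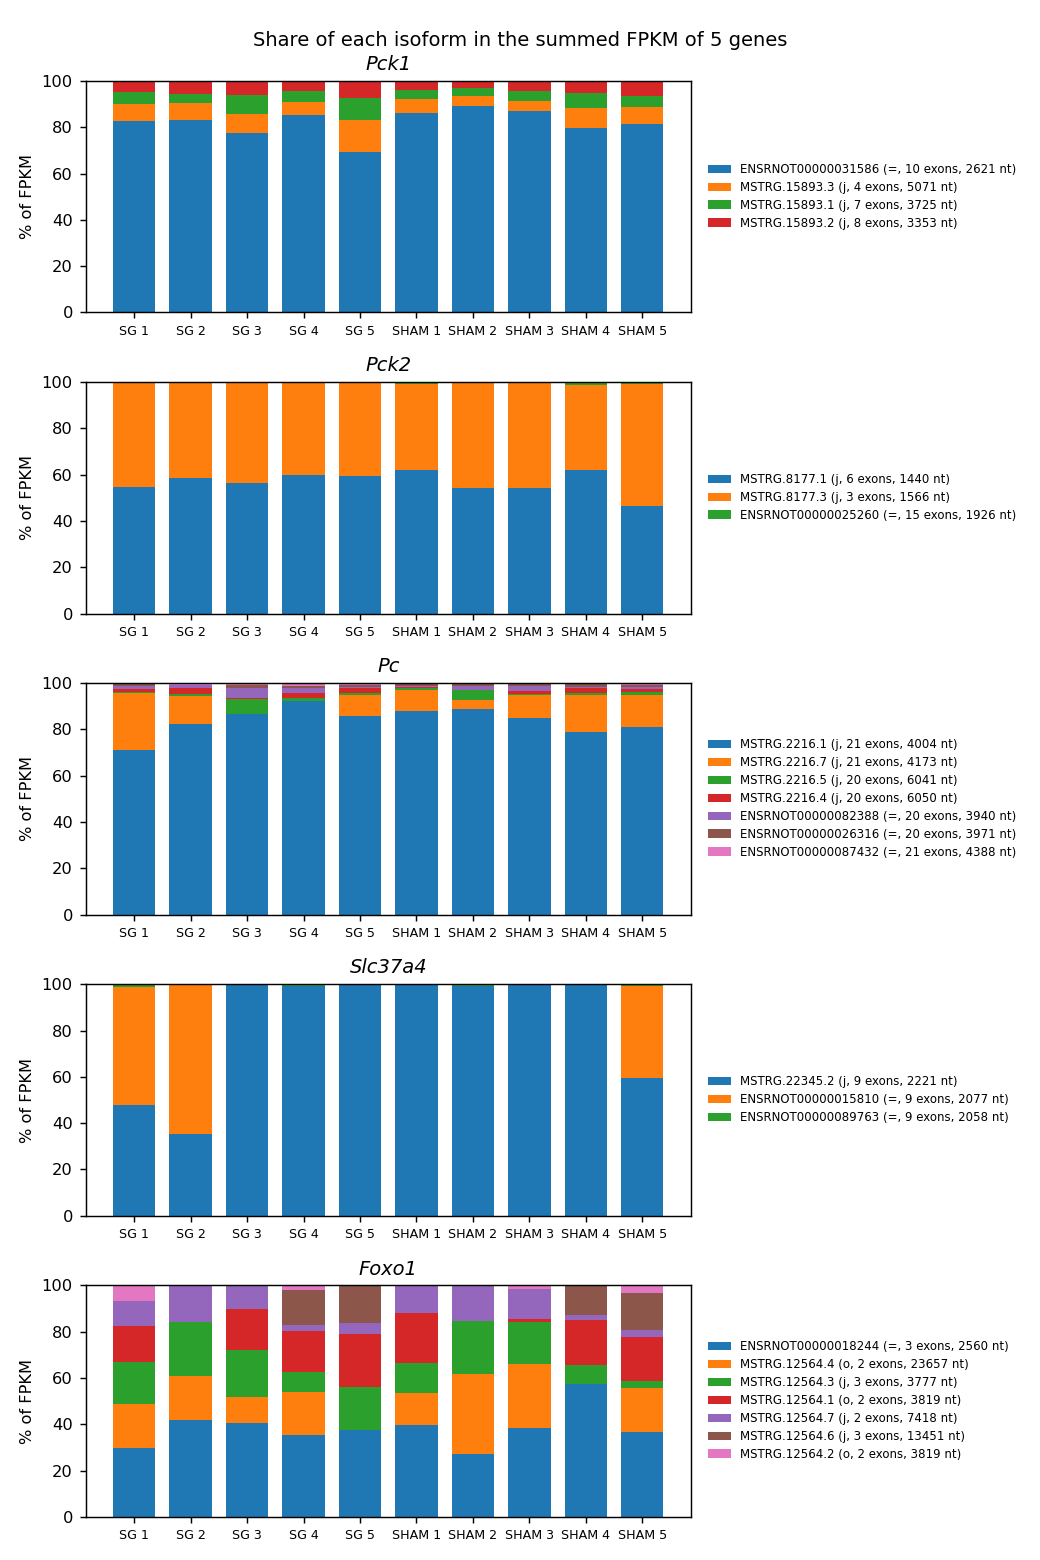
Percent of each gene's summed FPKM (vertical axes, 0 to 100) held by each isoform in the 10 libraries, for Pck1, Pck2, Pc, Slc37a4 and Foxo1; the legends give class code, exons and length. Slc37a4 shows a second isoform in SG 1, SG 2 and SHAM 5 only, and Foxo1 is split over 7 isoforms.

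Ratios within a library do not depend on its scaling, and they were used to compare paralogs and opposing enzymes. Cytosolic Pck1 exceeded mitochondrial Pck2 in FPKM by 133-fold to 272-fold in SG and by 109-fold to 517-fold in SHAM, with 517-fold in SHAM 2. The Pck2 sum adds isoforms that do not overlap, so Pck1 exceeded either of them alone by more. G6pc exceeded G6pc3 by 3.03-fold to 34.4-fold in SG and by 5.31-fold to 25.0-fold in SHAM. The ratio of G6pc to its partner Slc37a4 spanned 0.117 to 0.972 after SG and 0.109 to 1.27 after SHAM, so the phosphatase exceeded the transporter in SHAM 4 alone. The ratio of Pc to Pck1 was 0.103 to 0.150 in SG and 0.0668 to 0.155 in SHAM.

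Among opposing pairs, Fbp1 against the liver phosphofructokinase Pfkl was the most even. Its ratio was 13.8 to 16.9 in SG and 12.2 to 17.4 in SHAM. Pck1 against the liver pyruvate kinase Pklr was 84.8, 74.5, 56.1, 101 and 64.3 in SG and 129, 125, 59.2, 78.5 and 111 in SHAM. None of the 6 ratios differed beyond the spread between groups (exact permutation tests, two-sided, adjusted p = 0.984 for each, where the smallest p possible is 0.00794). The smallest unadjusted value was that of Pck1 to Pklr (difference -0.37 on the log2 scale, exact p = 0.190), which was also the largest difference of the 6.

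Whether members rose and fell together was examined over the 10 libraries, and no pair of the 36 passed after adjustment. Of the Pearson correlations of log2(CPM + 1), 19 were positive and 17 negative, with a median of 0.04. Pck1 and G6pc, often read together, had r = 0.05 and Spearman's rho = 0.37 (permutation tests, p = 0.890 and 0.297, adjusted p = 0.942 and 0.768), and r = 0.61 without SG 5 and SHAM 2. The steepest relation was between G6pc and Ppargc1a (r = -0.84, permutation p = 0.00943, adjusted p = 0.339; rho = -0.50, p = 0.146, adjusted p = 0.659). It rested on SG 3 and SHAM 2, since without them r was -0.03. G6pc and Pc had r = 0.67 and rho = 0.82 (permutation p = 0.0320 and 0.00572, adjusted p = 0.384 and 0.206), and r = 0.87 without SG 3 and SHAM 2. With isoforms that match the reference alone, which hold little of Pc, that r was -0.35. Pck2 and G6pc had r = 0.71 (permutation p = 0.0233, adjusted p = 0.384; rho = 0.61, adjusted p = 0.578) and 0.49 without SG 3 and SHAM 4. Centred within groups, r was -0.85 for G6pc and Ppargc1a, 0.68 for G6pc and Pc and 0.76 for Pck2 and G6pc, and 0 pairs passed.

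**Figure D4:**
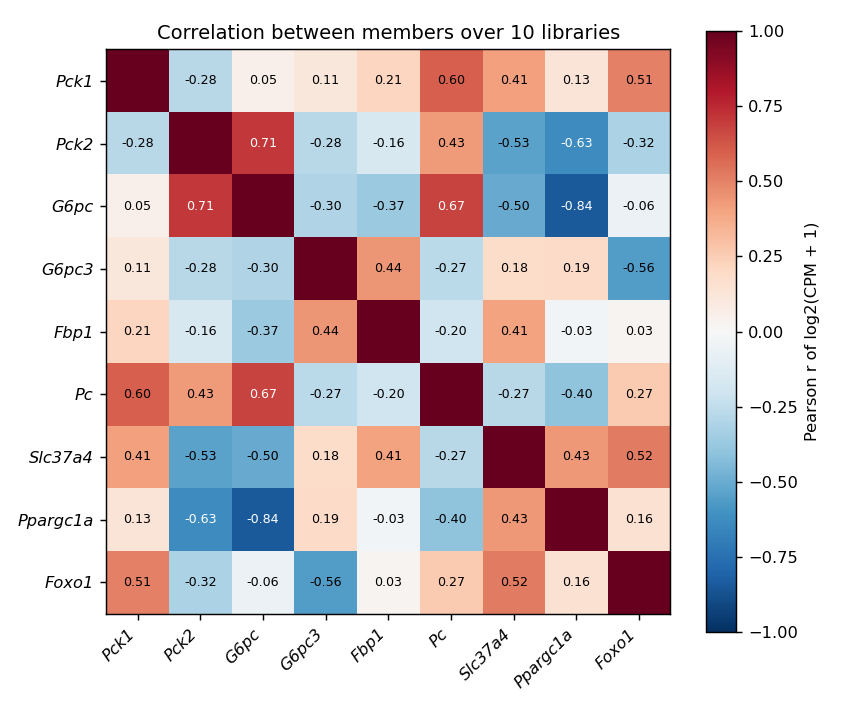
Pearson r of log2(CPM + 1) between members over the 10 libraries, red for positive and blue for negative. G6pc stands at -0.84 with Ppargc1a, 0.71 with Pck2 and 0.67 with Pc, and at 0.05 with Pck1; no pair passed after adjustment over 36.

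SG 3 and SHAM 2, the libraries with the least G6pc, also stood apart in the circadian clock, the daily rhythm of transcription. Dbp, a transcription factor that oscillates with the clock, was at 81.1 FPKM in SG 3 and 83.6 in SHAM 2. It stood at 20.5 to 22.7 FPKM in SG 1, SHAM 1 and SHAM 3 and at 2.34 to 4.63 in the other 5 libraries. Arntl, a core clock factor of opposite phase, was at 0.211 FPKM in SG 3 and 0.438 in SHAM 2 and at 5.62 to 7.91 in the 5 libraries with the least Dbp. Because the libraries fall into separate clusters of Dbp, no pooled correlation is given. Each group held libraries of all 3 Dbp levels, the hour of sampling is not labelled, and the part of the clock in the spread of G6pc was not tested. Without SG 3 and SHAM 2, a setting chosen after seeing the data, 0 of 9 members passed (edgeR) and the log2 fold change was 0.23 for G6pc, -0.22 for Ppargc1a and 0.27 for Pck1.

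**Figure D5:**
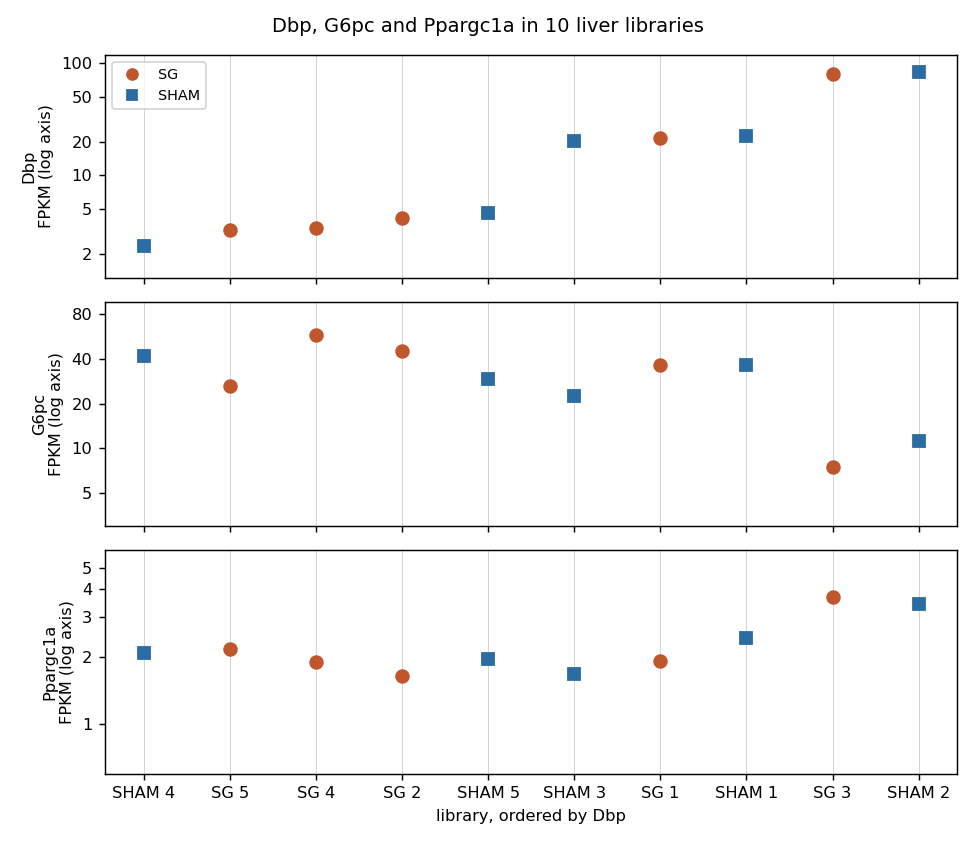
FPKM of Dbp, G6pc and Ppargc1a on log axes in the 10 libraries, ordered from the lowest to the highest Dbp; circles are SG and squares SHAM. SG 3 and SHAM 2, at the right, have the most Dbp and Ppargc1a and the least G6pc.

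SHAM 2 was highest in some further genes that feed carbon into glucose and lowest in others. The serine dehydratase Sds was at 92.7 FPKM there and at 3.28 to 11.3 in the other 9 libraries, and the tyrosine aminotransferase Tat at 695 FPKM against 167 to 393. The cytosolic aspartate aminotransferase Got1 was at 89.2 FPKM there and at 13.2 to 40.7 elsewhere. The lactate dehydrogenase Ldha was instead lowest in SHAM 2, at 93.1 FPKM against 104 to 379 elsewhere. Slc16a1, of the substrate entry genes, was also lowest there, at 9.13 FPKM against 10.2 to 54.3. The sum of 6 periportal hepatocyte markers, Sds among them, was 1874 FPKM in SHAM 2, the highest of its group (539 to 1248 in the other SHAM libraries), and 758 to 1509 FPKM in SG. Of that sum Ass1 made up 1494 FPKM. Hal (85.0 FPKM, against 119.9 in SHAM 1), Hsd17b13 (61.4, against 74.8 in SHAM 1) and Cyp2f4 (10.8, against 11.5 in SHAM 4) were not highest there. The sum of 6 pericentral markers was also highest in SHAM 2, at 4452 FPKM.

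Wider lists of the pathway showed no member that passed. Of the enzymes of the reversible steps, which include malate dehydrogenases and aspartate aminotransferases beside those shared with glycolysis, 0 of 12 tested genes passed (edgeR, 4 positive and 8 negative, median log2 fold change -0.03 beside -0.01 over all tested genes). The smallest p-values were those of Got2 (-0.20 ± 0.13 SE), the lactate dehydrogenase Ldha (0.49 ± 0.39) and Got1 (-0.54 ± 0.52). Ldha averaged 262 ± 104 FPKM after SG against 172 ± 80.6 after SHAM (SD, n = 5). For genes of substrate entry, 0 of 19 passed, with 10 positive and 9 negative and a median of 0.02. Sds stood at -1.86 ± 0.88 (SE), the glycerol 3-phosphate dehydrogenase Gpd1 at 0.25 ± 0.14 with 116 ± 20.2 FPKM in SG and 91.4 ± 5.79 in SHAM, and Tat at -0.56 ± 0.32.

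Of the transcriptional and hormonal regulators 0 of 33 passed, with 11 positive and 22 negative and a median of -0.05. At an unadjusted p under 0.05 (edgeR) there was 1 gene of 33, against 4.53% of all tested genes. That gene was Cebpb, a C/EBP transcription factor of the fasted and stressed liver (-0.74 ± 0.27 SE, edgeR adjusted p = 0.991). It averaged 12.9 ± 3.42 FPKM after SG against 20.2 ± 6.72 after SHAM (SD, n = 5). Its relative Cebpa stood at -0.39 ± 0.24 and the protein kinase A subunit Prkar2a at -0.23 ± 0.15. Over all tested genes 52.6% of log2 fold changes were negative. Of the opposing glycolytic enzymes 0 of 6 passed (2 positive, 4 negative, median -0.09), with Pfkl at -0.14 ± 0.10, Pklr at 0.26 ± 0.19 and Hk1 at -0.22 ± 0.22. Of 7 genes regulated by insulin or FOXO1, 0 passed (5 positive, 2 negative, median 0.27, but 0.17 without SG 2 and 0.17 without SHAM 2), with Cited2 at 0.60 ± 0.33, Irs2 at 0.48 ± 0.28 and Irs1 at 0.27 ± 0.19. The medians of the other 4 lists changed sign under other settings, as given with the alternatives. Genes of these lists that were below 1 FPKM or not in the sums were not analysed here.

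The genes whose pattern over the 10 libraries was most like that of a member were searched among 11130 tested genes by Spearman's rho. For G6pc these were Cyp2t1 and RGD1310507 (rho = 0.94 each) and Egfl7 (0.93). For Ppargc1a they were Stxbp4 (0.96), Isca2 (0.93) and Nf1x (0.92), and for Pck1 they were AABR07026294 and AABR07034639 (0.94 each) and LOC103690317 (0.90). With 10 libraries and this many genes, such values describe the libraries only.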

How the data were processed

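Total RNA of 10 liver samples was depleted of ribosomal RNA and sequenced as paired ends, per the labels' protocols. HISAT2 2.0.4, StringTie 1.3.4, cutadapt 1.9 and FastQC 0.10.1 are listed, with the build Rnor_6.0, in the submitters' processing notes. One deposited table gives each of 51430 isoforms an FPKM and an estimated count in every library. The estimated counts deposited there are whole and, in each library, in constant ratio to FPKM multiplied by isoform length, so count tests rest on estimates and long isoforms weigh more in counts than in FPKM. Isoforms of class code =, c, j or o were summed per gene name, and 7 isoforms carrying a member's name under other codes were not used.

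Genes with a mean of at least 1 FPKM (11139) were tested with edgeR 4.0.16 in R 4.3.3, on rounded counts with TMM scaling, two-sided, with Benjamini-Hochberg adjustment over all tested genes. SE is the log2 fold change over the root of F. Limma 3.58.1 on log2(FPKM + 0.5), log2(FPKM + 0.1) and log2(TPM + 0.5), DESeq2 1.42.0, other size factors, no filter, matching isoforms alone, a replicate block and libraries left out were alternatives. Ratios and isoform shares were tested by exact permutation and correlations by 100000 permutations, or by all orders with under 10 libraries. Counting error is small at this depth, and the number of libraries limits the precision.

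Named genes were the members, up to 3 genes with the smallest p of each list, members of the ratios, and the 3 genes most like Pck1, G6pc and Ppargc1a. Dbp, Arntl and the SHAM 2 values of Tat, Sds, Got1, Ldha and Slc16a1 were added after values were seen. One gene planned for a ratio and a list is not reported here. Members and lists were chosen with earlier results of these data known. Symbols were matched to RefSeq names of GRCr8, and 8 of 9 members had a promoter there.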

Additional observations from a re-analysis of the deposited data

Results flagged for a closer look

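Among 36 groups of 5 values (members, ratios and isoform shares), 5 had 1 library set apart from the other 4 by more than Dixon's limit for 5 values. Chance sets apart about 1 in 20 groups where values are normally distributed. The groups share member values and are not independent, and whether 5 is an excess was not tested. In SG 3, Pck2 was lowest in its group at 2.58 FPKM, with the next value at 4.17 FPKM, and Ppargc1a was highest at 3.71 FPKM, with the next at 2.18 FPKM. In SG 2, Slc37a4 was lowest at 46.5 FPKM, with the next value at 63.7 FPKM. SG 5 had the lowest ratio of Pck1 to Pck2 in SG at 133, with the next at 237. SHAM 5 had the lowest share of Slc37a4 in its most abundant isoform at 59.4%, with the next SHAM library at 99.2%.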

How the results depend on the processing

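No member, ratio or isoform share passed under any of the alternatives run. Members with 1 library left out ranged from -0.17 to 0.19 (Pck1), -0.0818 to 0.444 (G6pc), -0.131 to 0.0253 (Fbp1), -0.0398 to 0.0705 (Pc), -0.22 to 0.16 (Slc37a4), -0.371 to 0.0525 (Ppargc1a) and -0.50 to 0.13 (Foxo1) in log2 fold change. Without SHAM 2 Pck1 stood at 0.19, G6pc at -0.03, Fbp1 at 0.000158, Slc37a4 at 0.16, Ppargc1a at 0.05 and Foxo1 at 0.13. Signs also turned for Pck1 without SG 3 (0.03) or SG 5 (0.05), G6pc without SG 4 (-0.08), Fbp1 without SHAM 3 (0.03), Slc37a4 without SG 2 (0.03) and Foxo1 without SG 5 (0.02), and Pc without SG 1, SG 2, SG 4, SHAM 1, SHAM 3 or SHAM 5. Pck2 stayed negative (-0.39 to -0.08) and G6pc3 positive (0.04 to 0.24) with 1 library left out. Limma on log2(FPKM + 0.5) and log2(FPKM + 0.1) gave 0.0270 and 0.0270 for Pck1, 0.0448 and 0.0449 for Fbp1, 0.124 and 0.126 for Slc37a4 and 0.0741 and 0.0748 for Foxo1. Limma on log2(TPM + 0.5) gave -0.00717 for Pc and 0.0403 for Slc37a4. Without a filter Pc stood at -0.00334. Without SG 2 and SHAM 5, G6pc3 stood at -0.0442, Pc at -0.0562 and Foxo1 at 0.0483. Without SG 3 and SHAM 2, Pck1 stood at 0.270, Fbp1 at 0.0120, Slc37a4 at 0.136 and Foxo1 at 0.222. With isoforms that match the reference alone, Slc37a4 stood at 1.80, where the main matching isoform is listed at 0 in 7 libraries, Pc at 0.447, and Pck2 fell below 1 FPKM and gave no value. The cause of these turns was not tested.

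Ratios with 1 library left out ranged in log2 difference from -0.0613 to 0.5004 (Pck1/Pck2), -0.44 to 0.44 (G6pc/G6pc3), -0.50 to 0.50 (G6pc/Slc37a4) and -0.15 to 0.15 (Pc/Pck1). Fbp1/Pfkl stayed positive (0.0390 to 0.168) and Pck1/Pklr negative (-0.545 to -0.265). Without SHAM 3, Pck1/Pklr had an exact permutation p = 0.0476 (adjusted p = 0.286). Without SG 3 and SHAM 2 they were 0.0892 for G6pc/G6pc3, -0.00835 for G6pc/Slc37a4 and -0.180 for Pc/Pck1. G6pc/Slc37a4 was -0.0812 without SG 2 and SHAM 5 and -2.20 with matching isoforms alone, where Fbp1/Pfkl was -0.101, Pck1/Pklr -0.850 and Pc/Pck1 0.539. Isoform share differences ranged from -5.93 to 1.60 points (Foxo1) and -0.254 to 3.58 points (Pck2) and -23.4 to -4.99 points (Slc37a4) with 1 library left out, and that of Pck2 was -0.452 without SG 2 and SHAM 5. The correlation of G6pc and Pc was -0.352 with matching isoforms alone. By Spearman's rho 0 to 1 pairs passed with 1 library left out, the 1 without SHAM 2. List medians moved to -0.112 (substrate entry) and -0.124 (regulators) with matching isoforms alone, and to 0.0182 and 0.0183 (regulators) in limma on FPKM. Medians of other lists also changed sign. Reversible steps stood at 0.0419 and 0.0367 in limma on FPKM, 0.0281 without SG 3 and SHAM 2, 0.0288 without SG 3 and 0.0367 without SHAM 3. Substrate entry stood at -0.0312 in limma on TPM, -0.0710 without SG 2 and SHAM 5, -0.0373 without SG 3 and -0.0493 without SHAM 5. Opposing enzymes stood at 0.00867 and 0.0135 in limma on FPKM, 0.0212 with matching isoforms alone and 0.0102 without SHAM 2. The median of insulin or FOXO1 genes stayed positive, at 0.163 without SG 3 and SHAM 2, 0.169 without SG 2 and SHAM 5 and 0.166 to 0.393 with 1 library left out. Over all genes, DESeq2 called 18, edgeR without SG 2 and SHAM 5 called 1, and edgeR with 1 library left out 0 to 1, the 1 without SG 5 or without SHAM 1.

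Same-numbered SG and SHAM libraries shared only a number: their deviations from the group means correlated at -0.27 to 0.14, and 2 of 10 libraries correlated best with their own number. With the replicate number as a block edgeR called 0 genes, and the values of Pc (-0.00932) and Slc37a4 (0.0223) changed sign.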
